A study of Homo sapiens with 22 samples.

Results

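The genes PHGDH, PSAT1, PSPH, SHMT1, SHMT2, MTHFD2, MTHFD1L and ALDH1L2 encode the enzymes that build serine from glucose and move its carbon onto folate. They were chosen by name: each gene whose current or older symbol was on this list was taken from the deposited table, and all 8 were present among its 17165 genes. The cells were PC9, an established human lung adenocarcinoma line with an activating EGFR mutation, and 4 populations derived from it. Messenger RNA was sequenced in 11 groups of 2 libraries each. Parental cells were given vehicle, gefitinib or WZ4002, which block the EGFR kinase reversibly and covalently. The derivatives PC9-GR2 and PC9-GR3, called GR2 and GR3 here, were given vehicle or WZ4002. Gefitinib-tolerant cells were given vehicle or gefitinib, and WZ4002-tolerant cells vehicle or WZ4002. All treatments lasted 24 h. The inhibitors were labelled 1 mM, a unit that is doubtful because such compounds are usually given to cells at micromolar doses. The labels do not say how the derivatives were obtained, whether GR2 or GR3 is a single clone, or whether tolerant cells were kept in inhibitor before these treatments.

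In this pathway PHGDH oxidises a phosphoglycerate drawn from glycolysis, PSAT1 transfers an amino group to the product and PSPH removes the phosphate to give serine. SHMT2 in mitochondria and SHMT1 in the cytosol split serine into glycine and a folate-bound carbon. MTHFD2 and MTHFD1L carry the mitochondrial carbon on to formate for purine and thymidylate synthesis, and ALDH1L2 oxidises it to carbon dioxide. PHGDH, PSAT1, SHMT2 and MTHFD2 are known targets of ATF4, the transcription factor of the amino acid stress response, and growth factor signalling is known to raise the pathway in tumour cells.

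The libraries held 23.6 to 49.6 M reads, of which 14.4 to 31.8 M lay in listed genes, and values are counts per 1 M reads (CPM). DUSP6, an ERK target used to check that the inhibitors acted, lay at 17.7 to 276.0 CPM in vehicle-treated libraries and at 0.08 to 4.18 CPM in inhibitor-treated ones. Its vehicle level differed between populations, at 110 and 103 CPM in parental, 276 and 267 CPM in GR2 and 35.2 and 56.8 CPM in GR3 cells. In tolerant cells it was 17.7 to 36.3 CPM. Of the markers checked, all 6 epithelial genes were present, summing to 2777 to 8319 CPM, and so were all 5 lung adenocarcinoma genes, summing to 457 to 1550 CPM. Of the latter EGFR (373 to 1543 CPM) made up most, MUC1 lay at 2.98 to 209 CPM and SFTPB at 0.06 to 28.6 CPM, while NKX2-1 (0.08 to 1.7 CPM) and NAPSA (0.22 to 1.35 CPM) were near 0. Leukocyte markers were limited to CD14, 1 of 5, at 0.1 to 7.22 CPM. The endothelial list (2 of 3 present) summed to 4.69 to 38.0 CPM and the fibroblast list (3 of 5 present) to 5.36 to 20.15 CPM. The deposited table held 0 values equal to 0, so a gene absent from it may still have had reads in some libraries. Shares of all genes below are likewise over listed genes alone. The vehicle-treated GR3 libraries stood apart from each other: in replicate 2 all 14 genes of an ATF4 list were higher (median log2 gap 1.01) and all 6 cell cycle markers were lower (median -1.47). The cell cycle markers split widely in other pairs too. With WZ4002 all 6 were higher in replicate 2 of parental cells (median 1.29). All 6 were lower in replicate 2 of WZ4002-treated GR2 (-1.34) and GR3 cells (-1.15). By smaller medians all 6 were also lower in replicate 2 of vehicle-treated (-0.54) and gefitinib-treated parental cells (-0.43). The same held for gefitinib-treated gefitinib-tolerant (-0.60) and vehicle-treated WZ4002-tolerant cells (-0.32). For results of the tested pathway genes that rest on the vehicle-treated GR3 pair, the calls or values without single libraries are stated. For most other named genes they are not, and only some counts over lists are given in that way.

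Differences are log2 differences of CPM plus 1 with their standard error (SE), a scale that understates changes of low genes. They were tested with limma over 15485 genes, and a gene passed where the adjusted p was under 0.05. Nothing in the labels says that the paired libraries came from separate cultures, so the p-values reflect how much these pairs of libraries vary, and that variation may be technical alone. In bulk RNA, fewer cells of a type and less RNA per cell cannot be told apart. All comparisons with parental cells share the same parental libraries.

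Across the 11 groups PSAT1 and MTHFD2 spanned the widest ranges of the 8 genes and the cytosolic SHMT1 the narrowest. The highest group mean exceeded the lowest 36.2-fold for PSAT1, 21.7-fold for MTHFD2, 6.84-fold for MTHFD1L, 5.63-fold for PHGDH, 4.05-fold for PSPH, 3.64-fold for SHMT2 and 2.33-fold for SHMT1. Vehicle-treated GR2 cells held the highest mean of 6 genes (PHGDH, PSAT1, PSPH, SHMT2, MTHFD2 and MTHFD1L), although for SHMT2 they overlapped the GR3 pair next in order. PHGDH and SHMT2 had the same pattern of 2 separate levels. The 6 vehicle-treated libraries of parental, GR2 and GR3 cells held 243 to 449.7 CPM of PHGDH (median 406), and the 12 inhibitor-treated libraries held 68.1 to 124 CPM (median 91.1). The 4 vehicle-treated tolerant libraries lay among the latter, at 76.0 to 100.1 CPM. In the order of PHGDH means only 2 of 10 neighbouring pairs of groups did not overlap, those that set vehicle-treated GR2 cells above parental and vehicle-treated GR3 cells above every lower group. PSAT1 was graded instead: 5 of its 10 neighbouring pairs stood apart, and the 8 tolerant libraries (29.7 to 61.3 CPM) lay between the 4 inhibitor-treated parental libraries (9.6 to 15.2 CPM) and the vehicle-treated libraries of the other populations (123 to 405 CPM).

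**Figure D1:**
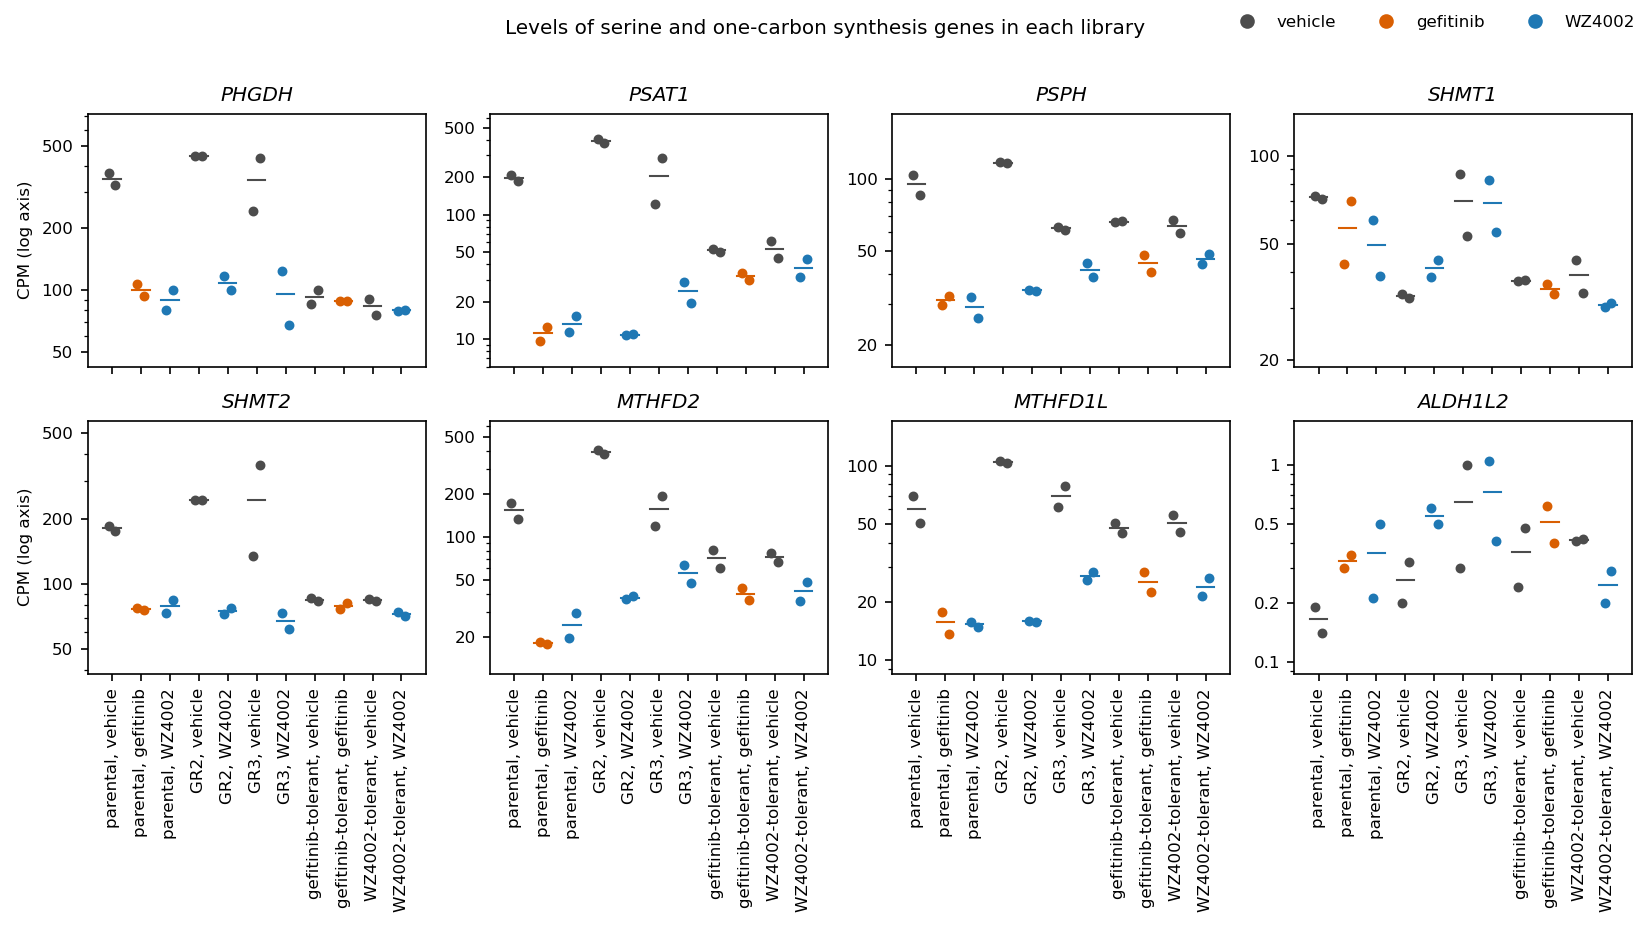
CPM of the 8 genes (log axes) in each library (points, coloured by treatment) with the mean of each pair (bars), by population and treatment. PHGDH in every tolerant library sat at 76.0 to 100.1 CPM, among the inhibitor-treated libraries, whereas PSAT1 in tolerant libraries lay between inhibitor-treated and vehicle-treated parental cells.

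Compared per kilobase of annotated exon, PSAT1 was the most abundant of the 8 genes in vehicle-treated parental cells, at 90.9 CPM per kb. PHGDH (37.8 CPM per kb), SHMT2 (37.4), PSPH (34.5) and MTHFD2 (31.4) followed, then MTHFD1L (11.9) and SHMT1 (9.89). In parental cells given gefitinib SHMT2 led at 15.9 CPM per kb, with PSAT1 at 5.06 CPM per kb and MTHFD2 at 3.71 CPM per kb. The lengths join the exons of all annotated transcripts, 9.22 kb for PHGDH, and so understate genes with long minor transcripts. ALDH1L2 was barely present, at 0.14 to 1.04 CPM over all 22 libraries. It did not pass the filter on low values and was not among the 7 members tested. In a fit without that filter it passed in none of 17 comparisons, and the lowest adjusted p was 0.0977 (vehicle-treated GR3 against parental, log2 difference 0.47 ± 0.19).

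The promoters of PSAT1, MTHFD2 and PHGDH, which fell with both inhibitors, are shown beside that of SHMT1, which did not pass. These are the members with a single annotated start in the table used. They are the 250 bases before the gene start in RefSeq GRCh38.p14, which had an entry for 5 of the 8 genes, and capitals mark CCAAT or its reverse complement ATTGG, a motif bound by NF-Y. The coordinates are chr9:78296875-78297124 (plus strand) for PSAT1, chr2:74198365-74198614 (plus) for MTHFD2, chr1:119711684-119711933 (plus) for PHGDH and chr17:18363551-18363800 (minus) for SHMT1.
PSAT1: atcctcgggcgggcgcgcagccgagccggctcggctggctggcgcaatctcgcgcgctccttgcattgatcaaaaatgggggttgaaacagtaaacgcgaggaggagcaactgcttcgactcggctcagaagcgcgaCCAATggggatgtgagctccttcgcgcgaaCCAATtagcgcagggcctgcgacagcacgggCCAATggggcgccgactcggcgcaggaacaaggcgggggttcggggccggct
MTHFD2: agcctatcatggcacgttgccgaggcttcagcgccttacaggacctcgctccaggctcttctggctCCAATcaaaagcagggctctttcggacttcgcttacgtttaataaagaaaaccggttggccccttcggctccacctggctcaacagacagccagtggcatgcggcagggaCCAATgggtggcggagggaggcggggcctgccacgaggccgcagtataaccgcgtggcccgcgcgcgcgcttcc
PHGDH: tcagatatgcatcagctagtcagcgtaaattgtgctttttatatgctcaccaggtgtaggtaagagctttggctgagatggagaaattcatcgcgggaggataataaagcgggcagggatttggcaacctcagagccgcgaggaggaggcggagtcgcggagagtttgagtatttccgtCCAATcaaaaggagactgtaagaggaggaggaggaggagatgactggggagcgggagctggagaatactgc
SHMT1: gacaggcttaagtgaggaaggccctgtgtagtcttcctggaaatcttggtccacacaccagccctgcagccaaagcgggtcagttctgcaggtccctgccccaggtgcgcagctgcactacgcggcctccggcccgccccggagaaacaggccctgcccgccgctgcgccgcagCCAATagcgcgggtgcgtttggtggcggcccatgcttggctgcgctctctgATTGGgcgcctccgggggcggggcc
PSAT1 held 3 matches, MTHFD2 2, SHMT1 2 (1 of each strand form) and PHGDH 1, against at least 1 match in 32.0% of 35116 promoters of this length. CCAAT was searched after these sequences had been seen. The response element TGATGNAA, bound by ATF4 with a C/EBP partner, and the E-box CACGTG, bound by MYC, were searched on both strands and were present in 3.14% and 6.34% of promoters. Neither was found in these 4 windows. Among the members both were found at MTHFD1L only, in the windows of 2 of its 4 annotated starts. The element is shown here with ASNS, the asparagine synthetase gene and a classical ATF4 target, with TGATGNAA in capitals, at chr6:150866346-150866375 (plus strand) for MTHFD1L and chr7:97872458-97872487 (minus strand) for ASNS.
MTHFD1L: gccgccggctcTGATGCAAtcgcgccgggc
ASNS: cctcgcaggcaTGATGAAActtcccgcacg
These matches describe the letters of the windows and say nothing of binding in these cells.

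Both inhibitors lowered the serine synthesis and mitochondrial genes of parental cells. Of 7 members tested 6 fell with gefitinib and the same number with WZ4002, whereas 21.8% and 22.3% of all genes fell. The median difference of the 7 was -1.79 with gefitinib and -1.89 with WZ4002, beside 0.04 for all genes in each. PHGDH, the entry step, was at 372 and 326 CPM with vehicle, 107 and 93.7 CPM with gefitinib and 80.1 and 99.9 CPM with WZ4002. The treated libraries were all below the vehicle pair and overlapped each other, and the differences were -1.79 ± 0.25 (adjusted p = 6.19e-05) and -1.95 ± 0.25 (adjusted p = 2.76e-05). PSAT1 was at 210.2 and 187 CPM with vehicle, 9.6 and 12.6 CPM with gefitinib and 11.3 and 15.2 CPM with WZ4002. The treated pairs overlapped each other and retained 5.57% and 6.67% of the vehicle mean, which ranked PSAT1 12th and 13th among the 15485 genes by size of fall. PSPH, the last step, went from 105 and 85.8 CPM to 29.6 and 32.3 CPM with gefitinib and 32.0 and 26.1 CPM with WZ4002. Again no treated library reached the vehicle pair, with differences of -1.59 ± 0.13 (adjusted p = 7.83e-07) and -1.68 ± 0.13 (adjusted p = 4.16e-07).

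In mitochondria MTHFD2, the dehydrogenase and cyclohydrolase that is abundant in embryos and tumours and low in most adult tissues, changed most. It was at 172 and 133 CPM with vehicle, 18.5 and 17.7 CPM with gefitinib and 19.6 and 29.1 CPM with WZ4002. The treated libraries were far below vehicle, by -3.00 ± 0.24 (adjusted p = 6.05e-07) and -2.62 ± 0.24 (adjusted p = 1.59e-06), the 51st and 76th largest falls. MTHFD1L, which releases formate, went from 69.4 and 50.6 CPM to 17.6 and 13.7 CPM with gefitinib and 15.8 and 14.8 CPM with WZ4002. Its differences were -1.86 ± 0.18 (adjusted p = 2.80e-06) and -1.89 ± 0.18 (adjusted p = 2.42e-06). SHMT2 was at 187 and 176 CPM with vehicle, 77.8 and 75.7 CPM with gefitinib and 73.2 and 84.5 CPM with WZ4002. It fell least of the mitochondrial genes, by -1.23 ± 0.27 (adjusted p = 0.00189) and -1.19 ± 0.27 (adjusted p = 0.00215). Cytosolic SHMT1 did not pass with either inhibitor. Its vehicle libraries held 73.0 and 71.1 CPM, its gefitinib libraries 42.7 and 69.9 CPM and its WZ4002 libraries 60.4 and 38.8 CPM, so the treated pairs lay below vehicle but were spread widely (-0.39 ± 0.26, adjusted p = 0.233, and -0.56 ± 0.26, adjusted p = 0.0854). Without WZ4002 replicate 1 SHMT1 passed (-0.88, adjusted p = 0.0273).

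At the same labelled dose and time no member differed between WZ4002 and gefitinib in parental cells, in 7 pairs compared, each with an adjusted p of 0.999, and 0 of all 15485 genes passed in limma, with 525 at an unadjusted p under 0.05 and 0% called. Without WZ4002 replicate 1, 342 genes passed, none of them a member. The 95% intervals of the difference, WZ4002 minus gefitinib, were -0.70 to 0.37 for PHGDH, -0.39 to 0.87 for PSAT1, -0.37 to 0.18 for PSPH, -0.72 to 0.38 for SHMT1, -0.54 to 0.61 for SHMT2, -0.12 to 0.89 for MTHFD2 and -0.40 to 0.36 for MTHFD1L. The intervals thus leave room for a difference of up to 0.89 in MTHFD2 and 0.87 in PSAT1, and that the inhibitors act alike was not shown.

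In GR2 cells the same 6 genes fell with WZ4002, where 28.3% of all genes fell, and the median of the 7 was -2.04 (all genes 0.01). PSAT1 went from 405 and 379 CPM to 10.7 and 11 CPM, so that 2.77% of the vehicle mean remained. The difference was -5.05 ± 0.30 (adjusted p = 7.84e-09), the 12th largest fall. MTHFD2 went from 404 and 379.96 CPM to 36.7 and 38.3 CPM (-3.35 ± 0.24, adjusted p = 3.20e-08), and MTHFD1L from 106 and 103 CPM to 15.9 and 15.8 CPM (-2.65 ± 0.18, adjusted p = 2.11e-08). PHGDH went from 448 and 449.7 CPM to 117 and 100.8 CPM (-2.04 ± 0.25, adjusted p = 7.65e-06). PSPH went from 118 and 117 CPM to 34.4 and 33.8 CPM and SHMT2 from 246 and 246 CPM to 72.4 and 77.9 CPM, falls of -1.76 ± 0.13 (adjusted p = 5.07e-08) and -1.70 ± 0.27 (adjusted p = 8.04e-05). For these 6 genes no treated library came near a vehicle library. SHMT1 stood on the other side, with 33.6 and 32.6 CPM with vehicle and 38.3 and 43.96 CPM with WZ4002 (0.30 ± 0.26, adjusted p = 0.338). It passed when the spread was taken from these 4 libraries alone (adjusted p = 0.0344).

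GR3 cells responded in the same 6 genes, where 9.87% of all genes fell, and the median of the 7 was -1.45 (all genes 0.02). PSAT1 was at 123 and 288 CPM with vehicle and at 28.8 and 19.6 CPM with WZ4002. It fell by -2.93 ± 0.30 (adjusted p = 1.28e-05), with 11.8% of the vehicle mean left. PHGDH was at 243 and 440.7 CPM with vehicle and at 124 and 68.1 CPM with WZ4002, and SHMT2 at 134 and 357 CPM and at 73.6 and 61.7 CPM. The vehicle libraries of both genes were far apart, yet both exceeded the treated pair (-1.82 ± 0.25, adjusted p = 0.000171, and -1.69 ± 0.27, adjusted p = 0.000522). MTHFD2 went from 119 and 193 CPM to 63.1 and 47.8 CPM (-1.45 ± 0.24, adjusted p = 0.000605) and MTHFD1L from 61.4 and 78.4 CPM to 25.8 and 28.4 CPM (-1.33 ± 0.18, adjusted p = 0.000132). PSPH changed little, from 63.1 and 61.2 CPM to 44.5 and 38.7 CPM (-0.57 ± 0.13, adjusted p = 0.00603), and lost its call without WZ4002-treated replicate 2 (adjusted p = 0.0695). SHMT1 was at 86.8 and 52.9 CPM with vehicle and 82.8 and 54.7 CPM with WZ4002, pairs that overlapped fully (-0.01 ± 0.26, adjusted p = 0.982). The size of these falls moved with the vehicle library kept. Without vehicle replicate 1 the differences were -2.39 for SHMT2, -3.54 for PSAT1, -2.25 for PHGDH, -1.80 for MTHFD2 and -1.50 for MTHFD1L, and without vehicle replicate 2 they were -0.99, -2.33, -1.39, -1.10 and -1.15. These 5 genes kept their calls without any single library. With the spread taken from these 4 libraries alone 3 members fell, and PHGDH (adjusted p = 0.0544), SHMT2 (0.0835) and PSPH (0.101) were no longer among them. In that fit 720 of 14306 genes passed in either direction, against 3406 of 15485 in the main fit.

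**Figure D2:**
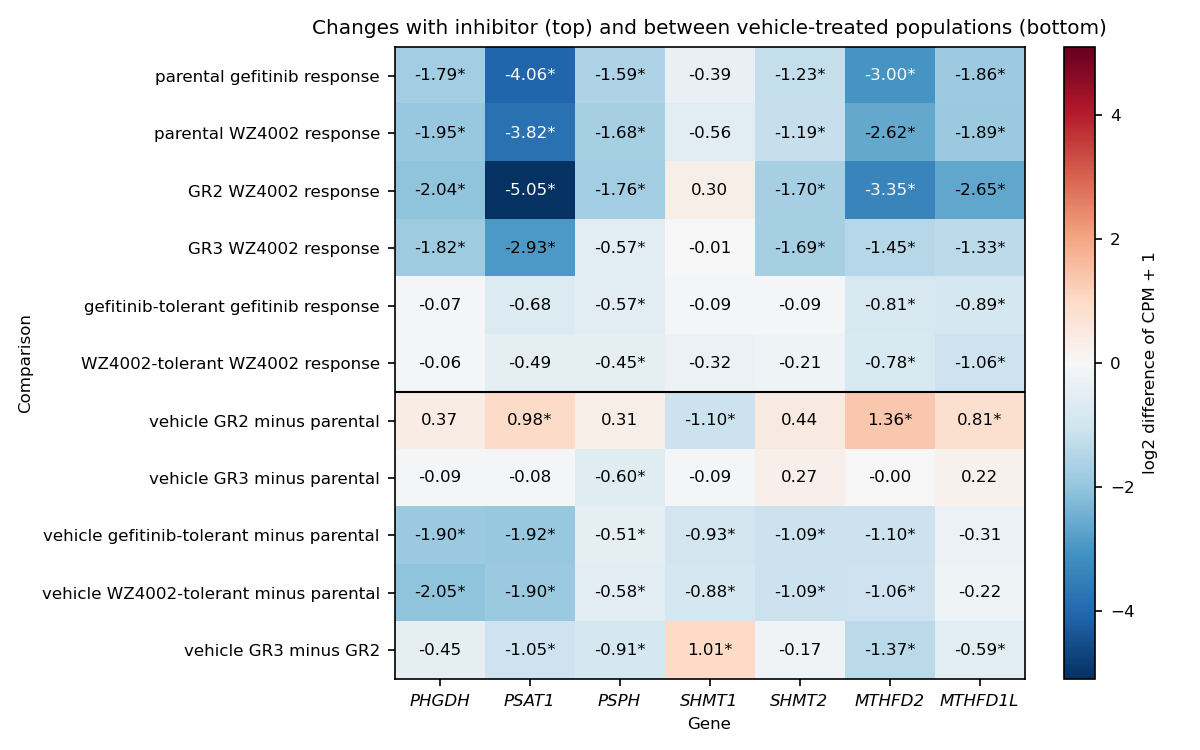
Log2 differences of CPM plus 1 (colour and number) for the 7 tested genes in 6 inhibitor responses and 5 comparisons of vehicle-treated populations; an asterisk marks an adjusted p under 0.05. PSAT1 had the deepest falls in parental, GR2 and GR3 cells (-2.93 to -5.05), SHMT1 passed in no response, and PHGDH in tolerant cells stayed at -0.07 and -0.06.

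Tolerant cells had low levels of this pathway without inhibitor. In vehicle-treated gefitinib-tolerant cells 6 of 7 members were lower than in parental cells, where 9.64% of all genes were lower, and in WZ4002-tolerant cells also 6, beside 9.73%. PHGDH held 86.0 and 100.1 CPM in gefitinib-tolerant and 91.1 and 76.0 CPM in WZ4002-tolerant cells, against 372 and 326 CPM in parental cells. That is 26.7% and 24.0% of the parental mean, with differences of -1.90 ± 0.25 (adjusted p = 0.000134) and -2.05 ± 0.25 (adjusted p = 8.69e-05). PSAT1 held 53.5 and 49.9 CPM and 61.3 and 45.1 CPM, against 210.2 and 187 CPM (-1.92 ± 0.30, adjusted p = 0.000416, and -1.90 ± 0.30, adjusted p = 0.000521). Both genes kept their calls when any single library of these comparisons was left out, whereas no such fit kept all 6 calls. In every such fit SHMT1 lost its call in gefitinib-tolerant cells (differences of -0.95 to -0.91). SHMT2 likewise lost its call in WZ4002-tolerant cells (-1.13 to -1.05). SHMT2 was at 86.2 and 83.2 CPM in gefitinib-tolerant and 85.8 and 83.3 CPM in WZ4002-tolerant cells, against 187 and 176 CPM (-1.09 ± 0.27 in both, adjusted p = 0.0109 in both). MTHFD2 was at 81.3 and 60.9 CPM and 77.5 and 67.1 CPM, against 172 and 133 CPM (-1.10 ± 0.24, adjusted p = 0.00463, and -1.06 ± 0.24, adjusted p = 0.00595). PSPH (-0.51 ± 0.13, adjusted p = 0.0130, and -0.58 ± 0.13, adjusted p = 0.00648) and SHMT1 (-0.93 ± 0.26, adjusted p = 0.0202, and -0.88 ± 0.26, adjusted p = 0.0272) were lower as well. MTHFD1L did not pass, at 50.5 and 44.8 CPM and 56.1 and 45.8 CPM against 69.4 and 50.6 CPM (-0.31 ± 0.18, adjusted p = 0.250, and -0.22 ± 0.18, adjusted p = 0.422). Without parental replicate 1 only PHGDH and PSAT1 passed in each population. The count was likewise 2 without gefitinib-tolerant replicate 2 and without WZ4002-tolerant replicate 2, and 3 without gefitinib-tolerant replicate 1.

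Of the cell cycle markers 0 of 6 passed in limma in either tolerant population with vehicle, with 0 at an unadjusted p under 0.05, and their medians were 0.42 and 0.50. ATF4 itself, named after its values were seen, was lower in both, with means of 107 and 125 CPM against 323 CPM in parental cells (-1.58 ± 0.13, adjusted p = 2.46e-06, and -1.36 ± 0.13, adjusted p = 9.49e-06). Of the 14 genes of the ATF4 list 9 and 8 were lower, where 9.64% and 9.73% of all genes were, and 0 higher, with medians of -1.27 and -1.11. The part of either list in the levels of the members was not tested.

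Vehicle-treated GR2 cells had more of several members than parental cells: 3 of 7 were higher, where 8.98% of all genes were higher, and 1 was lower, where 7.76% were. MTHFD2 was at 404 and 379.96 CPM against 172 and 133 CPM (1.36 ± 0.24, adjusted p = 0.00125). PSAT1 was at 405 and 379 CPM against 210.2 and 187 CPM (0.98 ± 0.30, adjusted p = 0.0337), and MTHFD1L at 106 and 103 CPM against 69.4 and 50.6 CPM (0.81 ± 0.18, adjusted p = 0.00618). In these 3 genes the GR2 pair lay wholly above the parental pair. PHGDH, PSPH and SHMT2 had GR2 pairs above the parental pair too but did not pass (0.37, 0.31 and 0.44, adjusted p = 0.349, 0.120 and 0.289). SHMT1 was lower, at 33.6 and 32.6 CPM against 73.0 and 71.1 CPM (-1.10 ± 0.26, adjusted p = 0.00950). Of these calls that of MTHFD2 remained whichever single library was left out. PSAT1 and SHMT1 lost theirs without any 1 of the 4 libraries (adjusted p of 0.0910 to 0.179 and 0.0532 to 0.0667), and MTHFD1L without parental replicate 2 (0.0963) or GR2 replicate 1 (0.0613). With the spread of the 4 libraries alone 5 members were higher, PHGDH (adjusted p = 0.0285) and SHMT2 (0.00828) being added. In that fit 4728 of 13808 genes passed in either direction, against 2591 of 15485 in the main fit.

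In vehicle-treated GR3 cells 1 member, PSPH, differed from parental cells, where 11.1% of all genes were lower and 9.77% higher. PSPH was at 63.1 and 61.2 CPM against 105 and 85.8 CPM (-0.60 ± 0.13, adjusted p = 0.00402), a call that was lost without parental replicate 1 (0.0652) and with the spread of these 4 libraries alone (0.0848). For PHGDH, PSAT1, SHMT1, SHMT2, MTHFD2 and MTHFD1L the parental pair lay within or overlapped the wide GR3 pair, with differences of -0.09 to 0.27 and adjusted p of 0.424 to 0.999. Against GR2 cells 4 members were lower in GR3, where 17.5% of all genes were lower, and SHMT1 was higher, where 15.6% were. PSPH differed by -0.91 ± 0.13 (adjusted p = 7.76e-05) and MTHFD2 by -1.37 ± 0.24 (adjusted p = 0.000400), and both kept their calls when single libraries were left out. PSAT1 (-1.05 ± 0.30, adjusted p = 0.0123) was lost without GR3 replicate 1 (0.200) or GR2 replicate 1 (0.0754) and with the spread of the 4 libraries alone (0.127), and MTHFD1L (-0.59 ± 0.18, adjusted p = 0.0194) without GR3 replicate 1 (0.151) or either GR2 library (0.0978 and 0.0748). SHMT1 (1.01 ± 0.26, adjusted p = 0.00701) was lost without GR3 replicate 1 (0.0927). Without GR3 replicate 2 PHGDH (-0.88, adjusted p = 0.0180) was lower as well.

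The gap within the vehicle-treated GR3 pair ran through the pathway. Replicate 2 exceeded replicate 1 by 1.40 in SHMT2, 1.22 in PSAT1, 0.85 in PHGDH, 0.70 in MTHFD2 and 0.35 in MTHFD1L on the log2 scale, while SHMT1 was lower by -0.70 and PSPH nearly level at -0.04. The gaps of SHMT2 and PSAT1 were wider than those of 98.7% and 98.0% of tested genes in that pair. The median signed gap of all tested genes there was 0.02. In the same replicate the ATF4 list was higher in 14 of 14 genes. The cell cycle markers were lower in 6 of 6, as they also were in replicate 2 of the WZ4002-treated GR2 and GR3 pairs. By smaller medians this held in several parental and tolerant pairs as well, as given above. The part of either list in the gap was not tested. SHMT2 shows what the pair decides: against parental cells it differed by 0.97 (adjusted p = 0.000138) without GR3 replicate 1 and by -0.43 (adjusted p = 0.0357) without replicate 2. Against GR2 cells these values were 0.53 (adjusted p = 0.00576) and -0.87 (adjusted p = 0.000183).

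**Figure D3:**
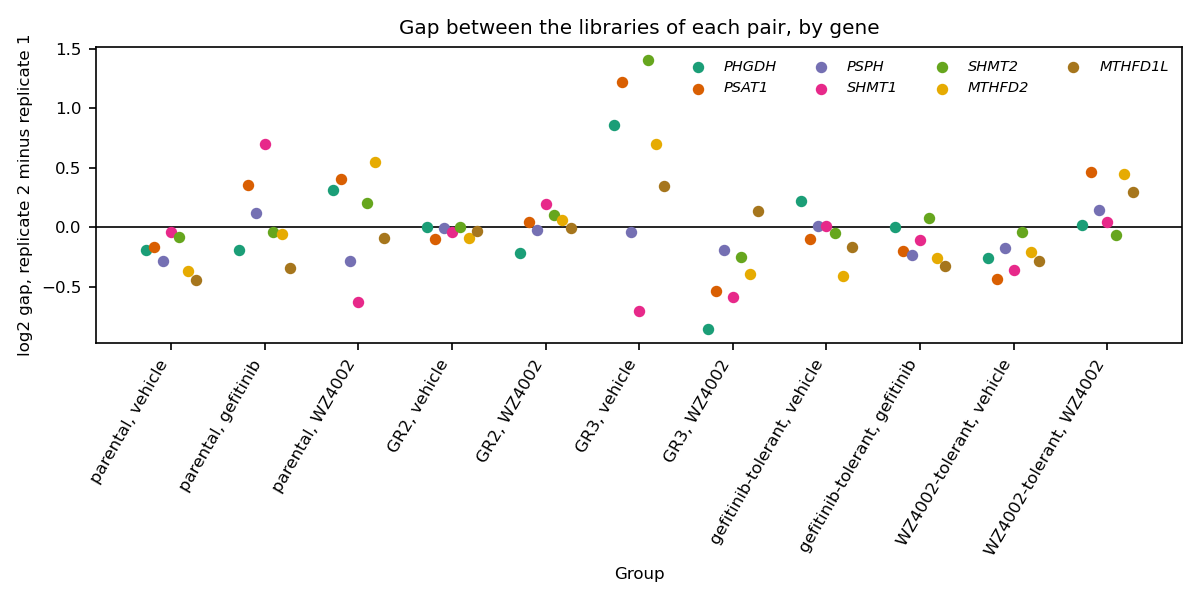
Log2 gap in CPM plus 1 between replicate 2 and replicate 1 for the 7 tested genes in each of the 11 groups. The gaps were within 0.70 of 0 in all groups other than the GR3 ones, and reached 1.40 for SHMT2 in vehicle-treated GR3 cells and -0.86 for PHGDH in WZ4002-treated GR3 cells.

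With inhibitor MTHFD1L, MTHFD2 and PSPH fell in tolerant cells, and PHGDH, PSAT1, SHMT1 and SHMT2 did not pass. Gefitinib lowered 3 of 7 members in gefitinib-tolerant cells, where 13.6% of all genes fell, and WZ4002 lowered 3 in WZ4002-tolerant cells, where 15.6% fell. MTHFD1L went from 50.5 and 44.8 CPM to 28.4 and 22.3 CPM with gefitinib (-0.89 ± 0.18, adjusted p = 0.00253) and from 56.1 and 45.8 CPM to 21.4 and 26.4 CPM with WZ4002 (-1.06 ± 0.18, adjusted p = 0.000785). MTHFD2 went from 81.3 and 60.9 CPM to 43.6 and 36.2 CPM (-0.81 ± 0.24, adjusted p = 0.0193) and from 77.5 and 67.1 CPM to 35.5 and 48.7 CPM (-0.78 ± 0.24, adjusted p = 0.0207). PSPH went from 66.1 and 66.5 CPM to 48.0 and 40.7 CPM (-0.57 ± 0.13, adjusted p = 0.00522) and from 67.3 and 59.5 CPM to 43.9 and 48.4 CPM (-0.45 ± 0.13, adjusted p = 0.0169). In all 3 genes the treated pairs lay below the vehicle pairs. PHGDH was at 88.5 and 88.4 CPM with gefitinib and 79.4 and 80.2 CPM with WZ4002, within the range of the vehicle pairs (-0.07 ± 0.25, 95% interval -0.60 to 0.47, and -0.06 ± 0.25, -0.60 to 0.47). PSAT1 was lower in both treated pairs, at 34.3 and 29.7 CPM and at 31.4 and 43.7 CPM, but did not pass (-0.68 ± 0.30, adjusted p = 0.0954, and -0.49 ± 0.30, adjusted p = 0.211). SHMT2 (-0.09 and -0.21, adjusted p = 0.822 and 0.579) and SHMT1 (-0.09 and -0.32, adjusted p = 0.822 and 0.368) did not pass either.

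These smaller changes depended on single libraries. In gefitinib-tolerant cells the count was 1 without vehicle replicate 1 (MTHFD1L alone) and 0 without gefitinib replicate 2, where MTHFD1L had an adjusted p of 0.0556. In WZ4002-tolerant cells it was 1 without vehicle replicate 1 or WZ4002 replicate 1, MTHFD1L in both cases. PSAT1 in gefitinib-tolerant cells passed with the spread of its 4 libraries alone (adjusted p = 0.0226).

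Whether the responses differed between populations was tested on the difference itself, where a positive value is a smaller fall in the population named first. Tolerant cells differed from parental cells in 4 of 7 members with gefitinib, where 1.07% of all genes had a higher response, and in 4 with WZ4002, beside 2.1%. PSAT1 differed by 3.38 ± 0.42 (adjusted p = 0.00138) with gefitinib and 3.33 ± 0.42 (adjusted p = 0.000759) with WZ4002, and MTHFD2 by 2.19 ± 0.34 (adjusted p = 0.00386) and 1.84 ± 0.34 (adjusted p = 0.00712). PHGDH differed by 1.72 ± 0.36 (adjusted p = 0.0208) and 1.89 ± 0.36 (adjusted p = 0.00868), and PSPH by 1.01 ± 0.18 (adjusted p = 0.0101) and 1.23 ± 0.18 (adjusted p = 0.00239). The vehicle levels differed as well, as given above, so a smaller fall began from a lower level. DUSP6, which is not a member, also differed, by 3.22 ± 0.59 (adjusted p = 0.0101) with gefitinib and 3.14 ± 0.59 (adjusted p = 0.00835) with WZ4002. With vehicle it too was lower in tolerant than in parental cells (-1.92, adjusted p = 0.00457, and -2.03, adjusted p = 0.00342). After inhibitor the pair means of tolerant and parental cells were 88.5 and 100.4 CPM of PHGDH with gefitinib and 79.8 and 90.04 CPM with WZ4002. For PSAT1 they were 32.0 and 11.1 CPM and 37.6 and 13.3 CPM, pairs that did not overlap, and these treated groups were not tested against each other. MTHFD1L (0.97 and 0.83, adjusted p = 0.0602 and 0.0733) and SHMT2 (1.13 and 0.98, adjusted p = 0.147 and 0.155) had larger values for tolerant cells that did not pass, and SHMT1 had 0.30 and 0.25 (adjusted p = 0.765 and 0.752). With gefitinib the PHGDH call was lost in 6 of 8 fits that each left out 1 library: parental vehicle replicate 1, either parental gefitinib library, gefitinib-tolerant vehicle replicate 1 and either gefitinib-tolerant gefitinib library (adjusted p of 0.0503 to 0.0970). The PSPH call was lost without parental vehicle replicate 1, parental gefitinib replicate 1 or gefitinib-tolerant gefitinib replicate 1 (0.0574 to 0.0650), leaving PSAT1 and MTHFD2. MTHFD1L passed without parental vehicle replicate 2 (0.0381 with gefitinib and 0.0436 with WZ4002). SHMT2 passed with the spread of the compared libraries alone (0.00527 and 0.0409).

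The WZ4002 responses of GR3 and GR2 cells differed in 4 of 7 members, where 6.78% of all genes had a higher response in GR3 cells. The difference was 2.12 ± 0.42 for PSAT1 (adjusted p = 0.00367), 1.91 ± 0.34 for MTHFD2 (adjusted p = 0.00162), 1.32 ± 0.25 for MTHFD1L (adjusted p = 0.00297) and 1.18 ± 0.18 for PSPH (adjusted p = 0.000660), and all 4 kept their calls when single libraries were left out. PHGDH (0.22 ± 0.36, adjusted p = 0.725), SHMT1 (-0.31 ± 0.37, adjusted p = 0.611) and SHMT2 (0.01 ± 0.38, adjusted p = 0.987) did not pass. DUSP6 differed between GR3 and GR2 cells too (1.89 ± 0.59, adjusted p = 0.0426). Against parental cells its response did not pass in GR3 (0.97, adjusted p = 0.421) or GR2 cells (-0.92, adjusted p = 0.388). For SHMT2 the GR3 vehicle pair set the sign: -0.69 without replicate 1 (adjusted p = 0.0107) and 0.71 without replicate 2 (adjusted p = 0.0128). Against parental cells the GR3 response differed in PSPH alone (1.11 ± 0.18, adjusted p = 0.00832), where 0.633% of all genes had a higher response, and this call was lost without parental vehicle replicate 1 (0.0663) and with the spread of the compared libraries (0.217). Without GR3 vehicle replicate 2 MTHFD2 (1.52, adjusted p = 0.0483) and PSAT1 (1.49, adjusted p = 0.0486) passed too, and without replicate 1 SHMT2 did, with a deeper fall in GR3 cells (-1.19, adjusted p = 0.00255). The GR2 and parental responses to WZ4002 differed in 0 of 7 members, where 3.34% of all genes had a higher and 3.45% a lower response. The closest were MTHFD1L (-0.76 ± 0.25, adjusted p = 0.0858) and PSAT1 (-1.23 ± 0.42, adjusted p = 0.0914), which passed with the spread of the compared libraries alone (0.0185). In limma 4 of the 7 (PSAT1, SHMT1, MTHFD2 and MTHFD1L) had an unadjusted p under 0.05 there.

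**Figure D4:**
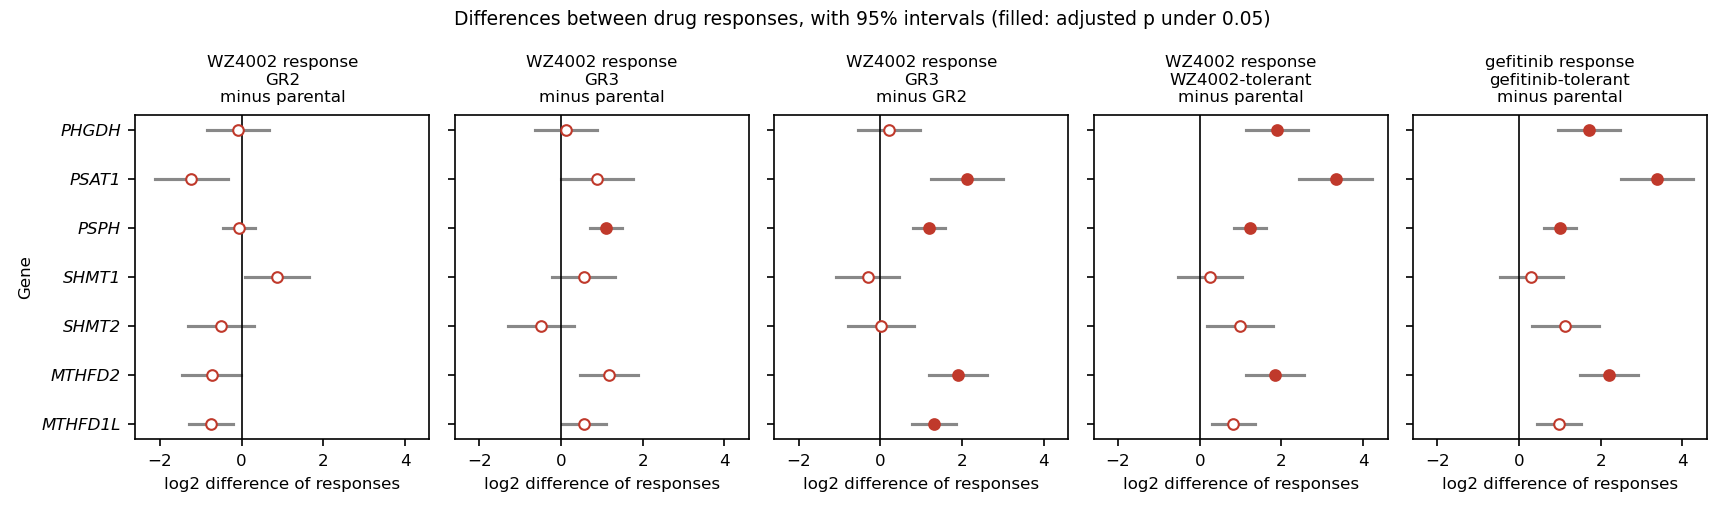
Difference between 2 drug responses (log2, positive for a smaller fall in the population named first) for the 7 tested genes, with 95% intervals; filled points have an adjusted p under 0.05. PSAT1 reached 3.33 and 3.38 in the tolerant cells, while SHMT1 passed in none of the 5 comparisons.

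Over the 11 group means of log2 CPM plus 1, PHGDH followed SHMT2 most closely (Pearson r = 0.976) and PSAT1 followed MTHFD1L (0.961) and MTHFD2 (0.959). SHMT1 had r of -0.06 to 0.32 with the other 6 members. These are descriptions over 11 points that share vehicle and inhibitor groups. Measured against the mean pattern of the members, the genes outside the list that were most alike were PSAT1P3 (r = 0.994), MARS1, a methionyl-tRNA synthetase (0.989), XPOT, the tRNA exporter (0.986), SH3RF3-AS1 (0.985), LONP1, a mitochondrial protease (0.984), and GPT2, a mitochondrial alanine aminotransferase (0.984). Those most like PHGDH were ADM2 (0.979), KIF21B (0.978) and FLOT1 (0.976), and those most like PSAT1 were MARS1 (0.9953), PSAT1P3 (0.9949) and XPOT (0.983). PSAT1P3 is a processed copy of PSAT1. Its level was at most 7.08% of that of PSAT1 in any library, and MTHFD2P7 reached 6.52% of MTHFD2, so a share of the reads of these genes and their copies may have been exchanged, and the r of the copies is uncertain. On the opposite strand SHMT1 overlaps SMCR8, which lay at 7.86 to 24.8 CPM. ALDH1L2 overlaps C12orf45, at 2.14 to 8.48 CPM against 0.14 to 1.04 CPM for ALDH1L2. Whether the counting used strand is not given, and reads of such partners could not be told apart without it.

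The surrounding pathway was read from lists of named genes, given as counts over tested genes in the 6 responses in the order parental gefitinib, parental WZ4002, GR2, GR3, gefitinib-tolerant and WZ4002-tolerant. The counts of every list stand beside these shares of all genes. In that order 21.8%, 22.3%, 28.3%, 9.87%, 13.6% and 15.6% fell, and 23.5%, 25.1%, 27.4%, 12.1%, 15.2% and 17% rose. Of 11 genes of purine and thymidylate synthesis, the methionine cycle and the step from homocysteine to cysteine, 9, 9, 9, 5, 8 and 8 fell and 0, 0, 0, 0, 1 and 1 rose, with medians of -0.95, -0.78, -1.0, -0.61, -0.73 and -0.97. GART, a trifunctional enzyme of purine synthesis that takes up formyl folate, fell in all 6 (-1.44, -1.10, -1.62, -0.69, -1.01 and -1.04, SE 0.17, adjusted p of at most 0.00978). PAICS, a later purine step, fell in 5 (-1.78, -1.67, -1.97, -1.31 and -1.36) and had an adjusted p of 0.0580 in GR3 cells (-0.64). PFAS (-1.67, -1.84, -1.60, -0.83, -0.99 and -1.23) and PPAT, the first committed step (-1.04, -0.88, -0.92, -0.65, -1.0 and -1.22), fell in all 6 with adjusted p of at most 0.0331 and 0.0146. The tolerant cells, in which PHGDH, PSAT1 and SHMT2 did not pass, were among them. With vehicle, 0 and 1 of the 11 were higher in gefitinib-tolerant and WZ4002-tolerant cells, where 9.39% and 8.72% of all genes were. Lower were 2 and 2, where 9.64% and 9.73% of all genes were (list medians 0.07 and 0.21). The GR3 count was 1 without vehicle replicate 1 or WZ4002 replicate 1, 3 without WZ4002 replicate 2 and 0 with the spread of these libraries alone. The count in gefitinib-tolerant cells was 4 without vehicle replicate 1 or gefitinib replicate 2, and in WZ4002-tolerant cells 5 without vehicle replicate 1. The single rise was lost in gefitinib-tolerant cells without either vehicle library or gefitinib replicate 2, and in WZ4002-tolerant cells without any 1 of the 4 libraries.

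Of 20 glycine and folate genes, 8, 9, 8, 3, 6 and 6 fell and 2, 3, 3, 1, 2 and 3 rose, where 23.5%, 25.1%, 27.4%, 12.1%, 15.2% and 17% of all genes rose. SLC19A1, the reduced folate carrier, fell in all 6 (-2.08, -1.92, -1.37, -1.13, -1.34 and -1.56, SE 0.23, adjusted p of at most 0.00320). MTHFD1, the cytosolic counterpart of MTHFD2 and MTHFD1L, fell in 5 (-1.46, -1.50, -1.48, -0.81 and -0.99) but did not pass in GR3 cells (-0.55, adjusted p = 0.123). MTR, the methionine synthase, fell in parental and GR2 cells (-0.41, -0.35 and -0.40) and in tolerant cells (-0.84 and -0.92), with SE 0.13 and adjusted p of at most 0.0350, but did not pass in GR3 cells (-0.22, adjusted p = 0.225). The mitochondrial carriers SFXN1 for serine (-0.79, -0.95, -0.78, -0.77, -1.06 and -1.0) and SLC25A32 for folate (-0.72, -0.68, -1.10, -0.78, -1.09 and -1.02) fell in all 6, and were named after their values were seen. Without single libraries the fall counts were 4 in parental gefitinib (vehicle replicate 1 or gefitinib replicate 1), 4 and 5 in parental WZ4002 (vehicle replicate 1, WZ4002 replicate 1), 1 in GR3 (vehicle replicate 1 or WZ4002 replicate 1) and 3 in each tolerant response (vehicle replicate 1 in both, gefitinib replicate 2 in gefitinib-tolerant). The rise counts were 0 in GR3 without vehicle replicate 1 or either WZ4002 library, with a pseudocount of 0.1, with no filter and with the spread of these libraries alone. They were also 0 in gefitinib-tolerant cells without vehicle replicate 1 or gefitinib replicate 2, and in WZ4002-tolerant cells without vehicle replicate 1 or WZ4002 replicate 1, with 1 left there under no filter.

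Of 5 tested serine and glycine transporters, 3, 3, 3, 2, 0 and 1 fell, with 1 of 5 at an unadjusted p under 0.05 in gefitinib-tolerant cells. SLC1A4, an exchanger of serine and alanine, fell in parental, GR2 and GR3 cells (-2.59, -2.73, -3.90 and -1.51, SE 0.21, adjusted p of at most 0.000202) and rose in WZ4002-tolerant cells (0.66, adjusted p = 0.0294). With vehicle it was lower in both tolerant populations (-1.49 and -1.72) and higher in GR2 cells (1.30). It was also lower in GR3 cells (-0.63, adjusted p = 0.0476), a call that was lost with a pseudocount of 0.1, with no filter, without either parental library or GR3 replicate 1, and with the spread of these libraries alone. SLC1A5, a glutamine and serine carrier, fell in parental, GR2 and GR3 cells (-1.40, -1.33, -1.32 and -1.41) and in WZ4002-tolerant cells (-0.69, adjusted p = 0.0278). SLC38A1 fell in parental and GR2 cells (-0.73, -0.55 and -1.76). In the vehicle-treated tolerant populations 4 and 3 of the 5 were lower, 2 in gefitinib-tolerant cells without parental replicate 2 or gefitinib-tolerant replicate 1, and 1 in WZ4002-tolerant cells without their replicate 2. The GR3 response count was 4 without vehicle replicate 1. In WZ4002-tolerant cells the single fall was lost without any 1 of the 4 libraries, and the single rise without vehicle replicate 1 or either WZ4002 library.

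Of the 14 genes of the ATF4 list, which share the known regulator of several members, 9, 10, 11, 10, 1 and 0 fell and 0, 0, 0, 0, 0 and 2 rose, with medians of -1.55, -1.61, -2.56, -1.41, 0.31 and 0.36. Beside the 1 fall in gefitinib-tolerant cells 13.6% of all genes fell, and beside the 2 rises in WZ4002-tolerant cells 17% rose. ASNS fell in parental, GR2 and GR3 cells (-4.03, -3.55, -5.38 and -3.25, SE 0.42) and did not pass in tolerant cells (0.40 and 0.89, adjusted p = 0.50 and 0.119). STC2 (-2.75, -2.40, -3.59 and -2.84) and SESN2 (-2.54, -2.85, -3.26 and -2.71) fell in the same 4 responses, with STC2 also falling in gefitinib-tolerant cells (-1.34, adjusted p = 0.00894). ATF4 itself fell by less (-0.54, -0.63, -0.74 and -0.63, SE 0.13) and did not pass in tolerant cells (0.24 and 0.13). In vehicle-treated GR2 cells 7 of the 14 were higher than in parental cells and 0 lower (median 0.92), where 8.98% of all genes were higher. Among the 7 were ATF4 (0.42, adjusted p = 0.0356), ASNS (1.52, adjusted p = 0.0223) and SLC7A11, the cystine carrier (1.93, adjusted p = 0.00621). That count was 1 without parental replicate 2 or GR2 replicate 2, 0 without GR2 replicate 1 and 11 with the spread of these libraries alone, and the GR3 response count was 5 with such a spread. The cell cycle markers fell in 6, 6, 6, 0, 1 and 1 of 6 genes, with 3 at an unadjusted p under 0.05 in GR3 cells (medians -2.68, -2.26, -2.33, -1.09, -0.87 and -1.12). Their count was 3 in the parental WZ4002 response without vehicle replicate 1 or WZ4002 replicate 1, 3 in GR3 without vehicle replicate 2, and 6 in each tolerant response with the spread of those libraries alone. In the tolerant responses the cell cycle medians lay below 0 while those of the ATF4 list lay above it, and the members had -0.57 and -0.45. The part of proliferation or of ATF4 in the changes of the members was not tested.

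**Figure D5:**
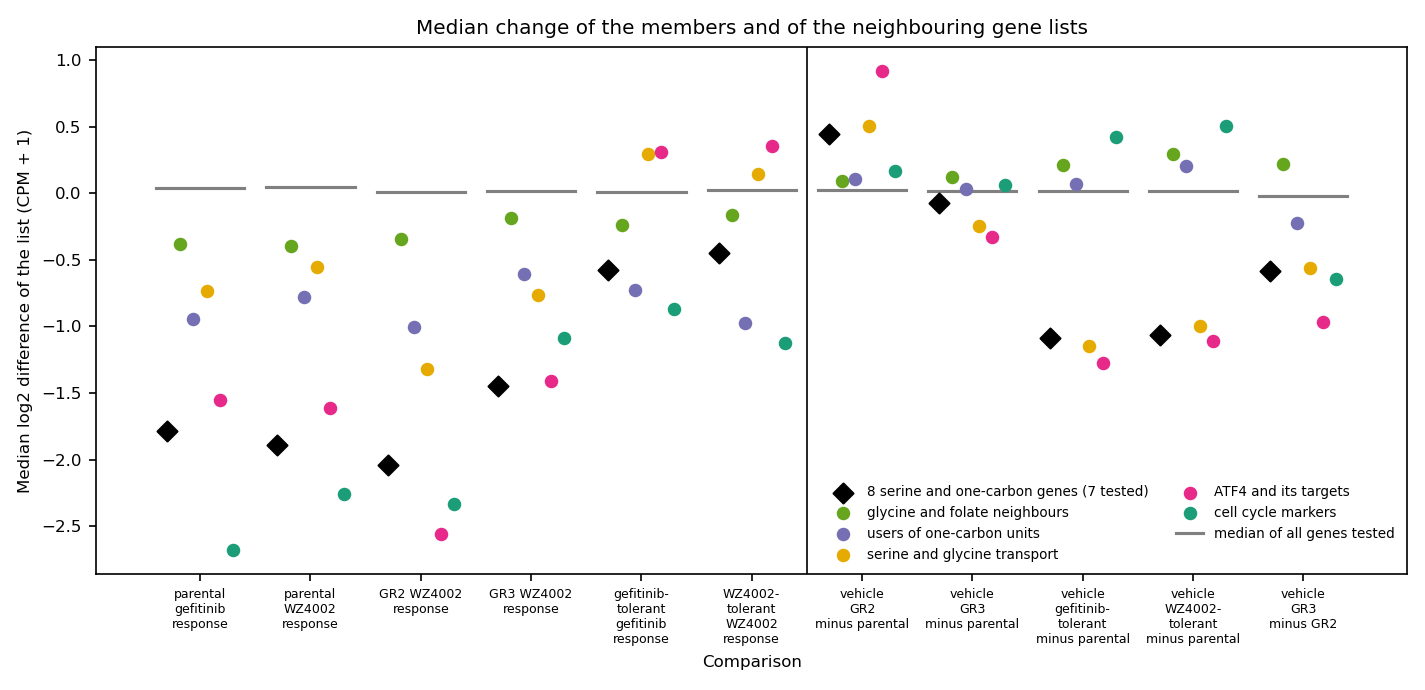
Median log2 difference of CPM plus 1 of the 8 genes (7 tested, diamonds) and of 5 lists of related genes (circles) in 6 inhibitor responses (left) and 5 comparisons of vehicle-treated populations (right), with the median of all tested genes (grey lines). The ATF4 list was at -1.41 to -2.56 in parental, GR2 and GR3 responses and at 0.31 and 0.36 in tolerant ones, while users of one-carbon units (purine, thymidylate, methionine cycle and cysteine genes) were at -0.61 to -1.0 in all 6.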

How the data were processed

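Polyadenylated RNA of 22 libraries was sequenced with a directional kit, per the labels' protocols. The deposited values are counts per 1 M reads (CPM) of 17165 genes, which the authors rounded to 2 decimals. STAR, HTSeq and the genome build hg19 are named in the submitters' processing notes; their versions, the strand setting and the annotation are not given in the sources used here. Depth was recovered from the steps of the CPM values. The 15485 genes that reached 1 CPM in 2 or more libraries (1680 did not) were fitted as log2(CPM + 1) with limma 3.58.1 in R 4.3.3, as 11 group means sharing 1 spread (11 residual degrees of freedom), with a trended prior. From this fit 17 contrasts were taken, with p-values adjusted by Benjamini-Hochberg over all genes tested. The step was tested on simulated data. Levels, orders, pair gaps and promoter matches were computed with pandas 2.3.3 and numpy 2.4.6.

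The members, lists and comparisons were chosen with earlier results of these data known. Besides the members, genes were named from each list by the lowest p in a drug response (up to 4), and by Pearson correlation with the members, PHGDH or PSAT1 over the group means. One gene that this rule names is not reported here. The fit was repeated with 0.1 as the pseudocount, without the filter, after scaling by median ratios, with a replicate block, without each library in turn, and with a spread from the compared groups alone.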

Additional observations from a re-analysis of the deposited data

Results flagged for a closer look

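The results given here were picked out because the difference between 2 drug responses was itself tested and passed in limma (adjusted p under 0.05). A positive log2 value is a smaller fall in the population named first.

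For gefitinib in gefitinib-tolerant against parental cells, PSAT1 had 3.38, MTHFD2 2.19, PHGDH 1.72 and PSPH 1.01. For WZ4002 in WZ4002-tolerant against parental cells, PSAT1 had 3.33, PHGDH 1.89, MTHFD2 1.84 and PSPH 1.23. Both sets rest on the vehicle-treated parental libraries, and all 4 genes were also lower in tolerant than in parental cells with vehicle. With gefitinib the calls of PHGDH and PSPH depended on single libraries, as given above. Without single libraries their differences ranged from 1.61 to 1.83 and from 0.87 to 1.15.

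For WZ4002 in GR3 against GR2 cells, PSAT1 had 2.12, MTHFD2 1.91, MTHFD1L 1.32 and PSPH 1.18. Against parental cells the GR3 response differed in PSPH alone, by 1.11. That call depended on a parental vehicle library and on the spread used, as given above.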

How the results depend on the processing

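Of 65 called results of single members, 637 alternatives were run: 571 kept the call, 66 lost it (60 of them with a library left out) and 0 reversed. A pseudocount of 0.1, no filter and median-of-ratios scaling changed no call of a member. With 2 libraries a group, a lone library left after another was removed was assumed to vary like the other groups. edgeR and DESeq2 were planned on reads recovered from the CPM values. They were not run, because a check of units did not accept those reads as counts. In every library 100% of the values did fall on whole reads within the rounding. Where calls were lost the cause was not tested.

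With the spread taken from the compared groups only, an alternative chosen after seeing the data, the number of members was 1 higher with WZ4002 in GR2 cells (0 otherwise), 3 lower with WZ4002 in GR3 cells (6), 5 higher in vehicle-treated GR2 against parental cells (3) and 0 lower in GR3 against parental cells (1). For the differences of WZ4002 responses it was 1 lower in GR2 against parental cells (0) and 0 higher in GR3 against parental cells (1). The numbers of all genes called in either direction moved as well. In the order of these comparisons they were 9614, 720, 4728, 1053, 925 and 8 of 13808 to 14946 genes. In the main fit they were 8618, 3406, 2591, 3228, 1051 and 200 of 15485.

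With single libraries left out, the number of members lower ranged from 0 to 3 for gefitinib in gefitinib-tolerant cells and from 1 to 3 for WZ4002 in WZ4002-tolerant cells. With vehicle it was 0 lower and 1 to 2 higher in GR2 against parental cells, 0 to 2 lower and 0 to 1 higher in GR3 against parental cells, 2 to 5 lower in each tolerant population, and 2 to 6 lower in GR3 against GR2 cells. For response differences it was 0 to 1 lower and 0 to 3 higher in GR3 against parental cells, 0 to 1 lower in GR3 against GR2 cells and 2 to 5 higher in gefitinib-tolerant cells.

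Directions that reversed with a library left out all belonged to results that did not pass. Their log2 differences ranged, for SHMT1 with WZ4002 in GR3 cells, from -0.36 to 0.34, and for PHGDH from -0.18 to 0.040 with gefitinib in gefitinib-tolerant cells and from -0.19 to 0.069 with WZ4002 in WZ4002-tolerant cells. WZ4002 minus gefitinib ranged from -0.24 to 0.049 for PSPH, -0.52 to 0.18 for SHMT1, -0.068 to 0.14 for SHMT2 and -0.19 to 0.15 for MTHFD1L. In vehicle-treated GR3 against parental cells the ranges were -0.51 to 0.34 for PHGDH, -0.68 to 0.53 for PSAT1, -0.44 to 0.27 for SHMT1, -0.43 to 0.97 for SHMT2, -0.35 to 0.35 for MTHFD2 and -0.00031 to 0.45 for MTHFD1L. MTHFD1L in WZ4002-tolerant against parental cells had -0.45 to 0.0028, and SHMT2 in GR3 against GR2 cells -0.87 to 0.53. The response differences ranged from -0.25 to 0.068 (PHGDH) and -0.22 to 0.068 (PSPH) for GR2 against parental cells, and from -0.30 to 0.56 (PHGDH) and -1.19 to 0.21 (SHMT2) for GR3 against parental cells. For GR3 against GR2 cells they ranged from -0.21 to 0.65 (PHGDH), -0.67 to 0.039 (SHMT1) and -0.69 to 0.71 (SHMT2). For SHMT1 they were -0.066 to 0.56 in WZ4002-tolerant and -0.048 to 0.65 in gefitinib-tolerant cells.

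The labels do not say that a replicate number marks a shared batch, and same-numbered libraries did not deviate together throughout: over 55 pairs of groups r was -0.46 to 0.63 (median 0.05). The highest, 0.63, was between vehicle- and gefitinib-treated gefitinib-tolerant cells. Between the treated and vehicle pairs, r was 0.36 for parental gefitinib and for GR3. It was -0.13 for parental WZ4002, -0.004 for GR2 and -0.05 for WZ4002-tolerant cells. With the replicate number as a block 1 call of a member changed, MTHFD1L in the gefitinib response of gefitinib-tolerant against parental cells (0.97, adjusted p = 0.0494 with the replicate block). The depth was 14.4 to 31.8 M reads in listed genes. Among the members ALDH1L2 alone, which lay at 0.14 to 1.04 CPM, did not pass the filter of 1 CPM in 2 libraries.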

Other observations

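Next to serine synthesis, CTH, which releases cysteine from cystathionine, was lower in tolerant cells with vehicle and rose there with inhibitor; it was named after its values were seen. With vehicle its mean was 34.0 ± 3.10 CPM in parental, 7.15 ± 0.382 CPM in gefitinib-tolerant and 5.20 ± 0.658 CPM in WZ4002-tolerant cells (SD, n = 2; -2.10 and -2.50 on the log2 scale, limma adjusted p = 0.00922 and 0.00325). With inhibitor CTH rose to 25.6 ± 4.72 CPM and 16.95 ± 0.820 CPM in the tolerant cells (1.70 and 1.54, adjusted p = 0.0214 and 0.0302). In parental cells it did not pass (-0.78 with gefitinib and -0.60 with WZ4002, adjusted p = 0.222 and 0.344). CBS, which joins serine to homocysteine one step earlier, was likewise lower in vehicle-treated tolerant cells (-1.75 and -1.95, adjusted p = 0.0260 and 0.0154) but did not pass with inhibitor there (0.26 and 0.27, adjusted p = 0.730 and 0.715). The rises of CTH are the single rises counted above among the users of one-carbon units. In gefitinib-tolerant cells that call was lost without either vehicle library or gefitinib replicate 2. In WZ4002-tolerant cells it was lost whichever single library was left out. For the vehicle calls of CTH and CBS, values with single libraries left out are not given here.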
